A study of Mus musculus with 3 samples.

Results

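The genes described here encode the subunits of oxidative phosphorylation, the set of 4 electron transfer complexes and the ATP synthase in the inner mitochondrial membrane. They were chosen by name from the mouse gene models of 3 RNA libraries: names that begin with Ndufa, Ndufb, Ndufc, Ndufs or Ndufv and a number, the 4 Sdh subunits, and names that begin with Uqcr, Cox4 to Cox8, Atp5 or mt-. The rule matched 100 of 22378 gene models, which carried 99 names. Of these, 97 had usable values and were analysed among 22077 gene names: 84 are encoded in the nucleus and 13 are the mRNAs of the mitochondrial genome. Cox4i1 and Cox4nb had no value, and another gene model of Ndufb8 was left out. Complex I was represented by 35 nuclear and 7 mitochondrial genes, complex II by 4 nuclear genes, complex III by 8 and 1, complex IV by 19 and 3, and complex V, the ATP synthase, by 18 and 2.

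The 3 kinds of sample, from mice of the FVB background, were compared with 1 library each. LCC, the lung-colonizing cells, were mammary cells sorted from recipient lungs the day after intravenous injection, recognised by GFP or by DDAO stain. They were pooled from 15 experiments, 42 lungs and 455880 cells. The series' design describes an experiment as glands of 8 FVB.GFP females given in 2 doses to 4 FVB recipients, while the sample label also names stained cells of FVB donors. The 42 lungs are fewer than 4 for each of the 15 experiments. E-Int29-Hi was a sort of dissociated mammary cells with intermediate EpCAM and high CD29, a gate stated to contain the lung-colonizing subset, and combined 3 samples. MG was mammary gland that had not been dissociated, also 3 samples combined. The LCC cells thus passed through dissociation, the blood and a sort, the E-Int29-Hi cells through dissociation and a sort, and MG through none of these. Ages were not given in the labels. With 1 library per group there is no replicate spread and no test, so every difference below is a difference between these libraries.

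Oxidative phosphorylation passes electrons from NADH and succinate through complexes I to IV to oxygen, pumps protons, and uses the proton gradient to make ATP in complex V. Complexes I, III, IV and V are mosaics: a few hydrophobic subunits are made inside the mitochondrion from its own genome, and all others, complex II included, are nuclear products that are imported. The mammary gland holds luminal and basal epithelium in a fatty stroma, and its fat, muscle and immune cells also carry mitochondria.

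Values are FPKM, fragments per kilobase of transcript relative to the mapped fragments of the library. Differences are log2 of the ratio of FPKM + 1, a scale that compresses the changes of weakly expressed genes. They were taken where either library of the pair had 1 FPKM or more. Where 3 values stand without library names, their order is LCC, E-Int29-Hi, MG. A difference of 2-fold or more (1 on this scale) was counted as higher or lower. Of the 84 nuclear members, 80 reached 1 FPKM in some library, and the other 4 (Cox8b, Cox6a2, Cox7b2 and Cox8c) did not. No source used here gives the read totals, so the depth is unknown and no counting interval is printed.

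Nuclear encoded members stood highest in LCC. Of the 80 at 1 FPKM or more, LCC held the highest value of 75, E-Int29-Hi that of 4 and MG that of 1, and MG held the lowest value of 59. Over all 84 the median level was 40.3, 20.1 and 17.7 FPKM. All 5 complexes shared this order of LCC above the other libraries: the median of the nuclear complex I members was 26.1, 11.5 and 14.0 FPKM, in the order LCC, E-Int29-Hi, MG. The complex II median was 41.7, 24.2 and 20.6 FPKM, and that of complex III 64.4, 29.8 and 27.1 FPKM. For the complex IV subunits it was 89.4, 42.3 and 34.0 FPKM, and for those of complex V 66.0, 35.8 and 28.6 FPKM. The order of the members within a library was nearly the same everywhere: over the 84 nuclear members Spearman's rho of the levels was 0.95 between LCC and E-Int29-Hi, 0.96 between LCC and MG, and 0.97 between E-Int29-Hi and MG. A member has the same transcript length in both libraries of each pair. The 84 include 4 members under 1 FPKM in every library, which widen the range of levels. No correlation over all genes is given beside these.

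**Figure D1:**
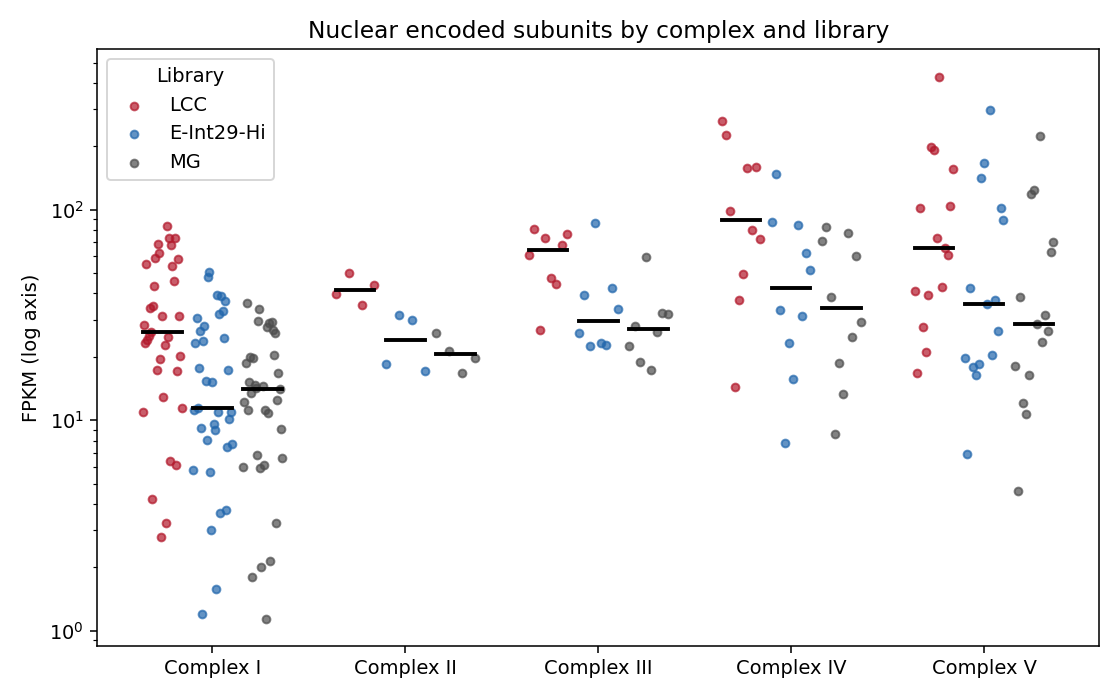
FPKM of the nuclear encoded subunits (log axis), by complex and library, 1 point per gene and a black line at each median; tissue-restricted forms and genes that are not subunits are left out. The LCC median lies above the other libraries in every complex, from 26.1 FPKM in complex I to 89.4 in complex IV.

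Against E-Int29-Hi, 34 of 80 nuclear members were 2-fold or more higher in LCC (42.5%), beside 21.2% of the 12147 genes tested. Only Cox6b2 was 2-fold or more lower, beside 14.1% of all genes. By any amount 75 of 80 were higher, beside 60.7% of all genes. The median difference was 0.82, beside 0.26 for all genes, and the middle 50% of members spanned 0.65 log2 units, beside 1.36 for all genes. Against MG, 44 of 80 were 2-fold or more higher in LCC (55.0%), beside 10.9% of 12443 genes, and 0 were lower, beside 12.8%. By any amount 78 of 80 were higher, beside 50.3% of all genes, with a median of 1.04 beside 0.01. E-Int29-Hi and MG were closer: 0 of 79 members were 2-fold higher in E-Int29-Hi, beside 8.99% of 12430 genes, and 0 were lower, beside 15.5%. The median there was 0.24, beside -0.23 for all genes. LCC enters the first 2 comparisons and MG the last 2, so these are not independent of each other. The counts depended on how the libraries were scaled. With each library brought to the same sum over genes other than the mitochondrial ones, 17 of 80 members were 2-fold higher in LCC than in E-Int29-Hi (21.2%, beside 16.6% of all genes) and 17 of 80 than in MG (21.2%, beside 5.27%).

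**Figure D2:**
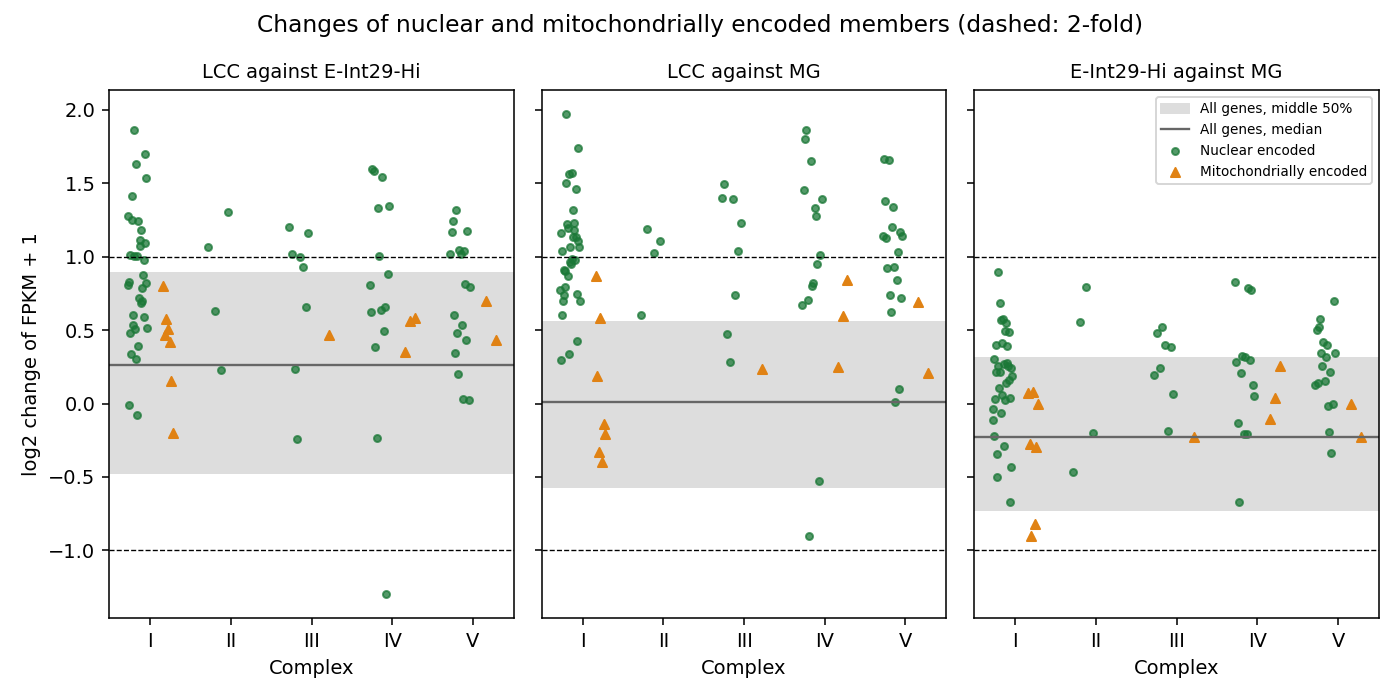
log2 difference of FPKM + 1 for each nuclear member (circles) and mitochondrially encoded mRNA (triangles) by complex in the 3 comparisons; the grey band holds the middle 50% of all genes, the line is their median, and the dashed lines mark 2-fold. Nuclear members of every complex lie mostly above the median gene in both LCC comparisons (medians 0.82 and 1.04), while the mitochondrial mRNAs lie at medians of 0.47 and 0.24, the latter at -0.14 when libraries are brought to the same sum.

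Transcript length moved with these differences. Short transcripts as a whole stood higher in LCC: the median of all genes under 500 bases was 0.55 against E-Int29-Hi and 0.40 against MG, and of genes over 5000 bases -0.21 and -0.48. Length here is the median over a gene's annotated protein coding transcripts, so a gene's bin may not match the transcript it expresses. By this measure Ndufs1 has 651 bases and Atp5g1 2675.5. The nuclear members are short, with a median transcript of 659 bases beside 2149 for genes at 1 FPKM or more. In the bin of 500 to 750 bases, the median of the 34 members was 0.99 against E-Int29-Hi, where all 907 genes had 0.52. Against MG the same members had 1.13, where 913 genes had 0.40. In this bin 16 of the 34 members were 2-fold higher against E-Int29-Hi, beside 30.8% of all its genes. Against MG 21 of the 34 were, beside 23.5%. Most members are abundant, and among genes of this bin at 10 FPKM or more the medians were closer: 0.99 for 30 members beside 0.61 for 558 genes against E-Int29-Hi, and 1.16 for 30 members beside 0.63 for 553 genes against MG. With the median of its length bin taken from each gene, 60 of 79 members remained above 0 against E-Int29-Hi, with a median of 0.33. Then 7 of 79 (8.86%) were 2-fold higher, a smaller share than the 13.4% of all genes. Against MG 73 of 79 remained above 0, with a median of 0.71, and 12 of 79 (15.2%) were 2-fold higher, beside 8.06% of all genes. The part of length in the differences was otherwise not tested.

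**Figure D3:**
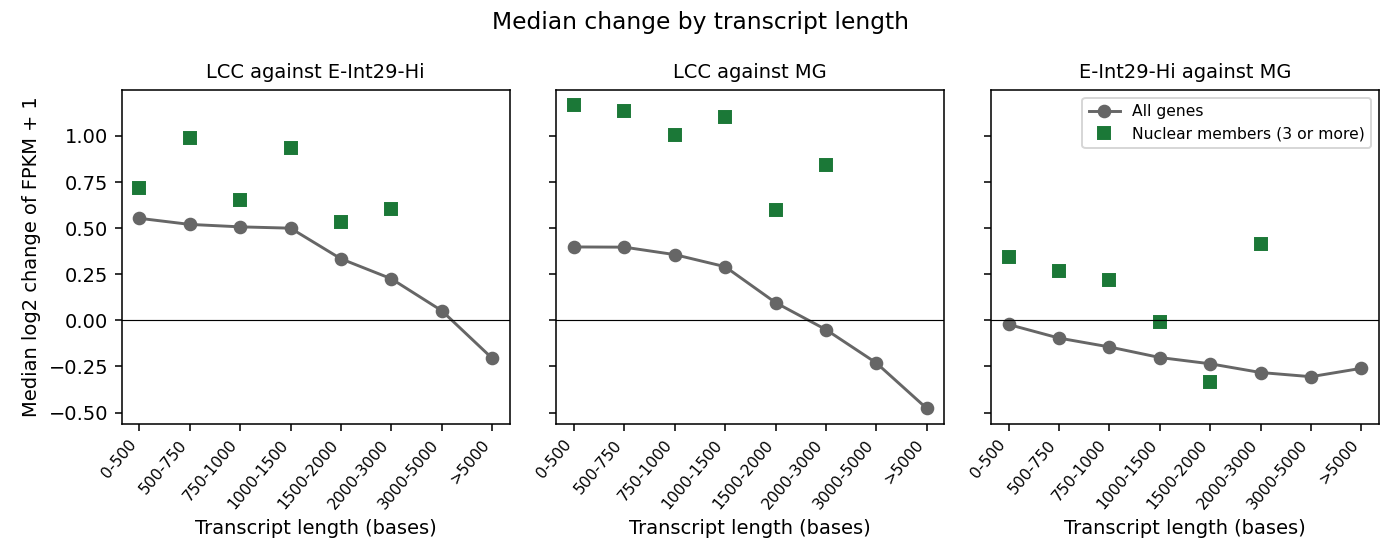
Median log2 difference of FPKM + 1 by transcript length in bases, for all genes (grey circles) and for nuclear members in bins with 3 or more (green squares). The median of all genes runs from 0.40 under 500 bases to -0.48 over 5000 in LCC against MG, and the members lie above the line of all genes in each bin of both LCC comparisons; against MG in E-Int29-Hi the 3 members of 1500 to 2000 bases lie below it.

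The cell types in the libraries differed as well. Summed FPKM of 7 lung epithelial markers was 636, 4.12 and 1.84. All 7 markers were 2-fold or more higher in LCC than in MG and 6 of 7 than in E-Int29-Hi; Scgb3a2 was listed at 0 in both other libraries and Sftpa1 in E-Int29-Hi. The sum of 8 leukocyte markers was 812, 146 and 229.7 FPKM, with 5 of 8 higher in LCC than in MG and 6 of 7 than in E-Int29-Hi, and none listed at 0. The 6 luminal epithelial markers summed to 3872, 277 and 2001 FPKM, a sum carried by Krt8 and Krt18. Those 2 were 2-fold or more higher in LCC than in MG, while Krt19 was lower in LCC (244 beside 488 FPKM), as were Elf5, Esr1 and Pgr, with log2 differences of -3.08, -2.74 and -5.25, and the list's median was -1.87. Against E-Int29-Hi 3 keratins were 2-fold or more higher, and Elf5, Esr1 and Pgr had -0.99, -1.23 and -1.38. The 6 basal markers summed to 643, 6804 and 417 FPKM, and all 6 were 2-fold or more lower in LCC than in E-Int29-Hi. Against MG 3 of the 6 were higher and 3 lower by any amount, with a median of -0.12. Markers of cell types known for many mitochondria were low: 7 skeletal muscle markers summed to 1.73, 1.58 and 11.8 FPKM, with Ckm, Myh4 and Mb listed at 0 in LCC. The 5 brown adipocyte markers summed to 10.2, 2.61 and 5.51 FPKM, of which Cidea made 8.40 in LCC and Elovl3 was listed at 0 there. The 5 fibroblast markers summed to 845, 53.6 and 1906 FPKM, 5 endothelial markers to 82.7, 76.2 and 459.5, 7 white adipocyte markers to 0.532, 2.53 and 29.7, and 4 erythroid markers to 31.6, 1.96 and 28.6. The part of cell composition in the differences was not tested, and in bulk RNA fewer cells of a type and less RNA per cell cannot be told apart.

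Promoters of these genes are known to hold sites for the factors NRF1, GABP (an ETS factor), YY1 and ERR. RefSeq promoters of build GRCm38.p6, from 250 bases before to 50 after the start, were found by symbol for 66 nuclear members and searched on both strands for CGCATGCG (NRF1), CCGGAAG (ETS), AAGATGGC (YY1) and TCAAGGTCA (ERR). The ETS word ends in the 3 letters that begin the YY1 word, so these can overlap. A match is a description, not a shown site. NRF1 words stood in 9 members (13.6%), beside 2.07% of all 27025 genes with a promoter and 4.15% of those at 1 FPKM or more. The ETS word stood in 16 members (24.2%, beside 9.93% and 18.9%), the YY1 word in 9 (13.6%, beside 3.19% and 4.92%) and the ERR word in 2 (3.03%, beside 0.466% and 0.36%). At least 1 of the 4 was present in 29 of 66 members (43.9%), beside 14.5% and 25.8%. In LCC against MG, members with and without the word had medians of 1.13 and 1.03 for NRF1, 1.13 and 0.98 for ETS, 1.14 and 1.01 for YY1, and 0.92 and 1.04 for ERR, which only 2 members hold. Whether these differ was not tested. The promoters below run from 150 bases before the start to 29 after it, with matched words in capitals. Atp5j is shown because it alone held 3 kinds of word, Uqcr11 and Atp5k because 2 kinds lie in this stretch, Cox8a as an abundant subunit with a match, and Ndufc2 and Ndufa4 because their differences were the largest in LCC against MG although none of the 4 words was found. They lie at chr16:84834948-84835126 on the minus strand (Atp5j), chr10:80406793-80406971 on the minus strand (Uqcr11), chr5:108434371-108434549 on the minus strand (Atp5k), chr19:7217588-7217766 on the minus strand (Cox8a), chr7:97399853-97400031 on the plus strand (Ndufc2) and chr6:11907422-11907600 on the minus strand (Ndufa4). RefSeq lists another Atp5j start, whose window held none of the words.
Atp5j: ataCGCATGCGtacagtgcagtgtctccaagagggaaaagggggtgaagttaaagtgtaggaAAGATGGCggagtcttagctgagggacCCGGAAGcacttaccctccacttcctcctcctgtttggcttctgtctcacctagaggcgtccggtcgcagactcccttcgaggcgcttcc
Uqcr11: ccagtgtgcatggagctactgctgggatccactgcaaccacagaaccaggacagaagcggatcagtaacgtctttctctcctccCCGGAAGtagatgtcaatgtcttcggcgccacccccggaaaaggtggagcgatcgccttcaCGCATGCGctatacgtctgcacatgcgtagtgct
Atp5k: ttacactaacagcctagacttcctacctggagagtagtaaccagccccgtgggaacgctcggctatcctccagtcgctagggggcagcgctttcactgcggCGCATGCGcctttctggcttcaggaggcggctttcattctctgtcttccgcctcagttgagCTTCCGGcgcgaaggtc
Cox8a: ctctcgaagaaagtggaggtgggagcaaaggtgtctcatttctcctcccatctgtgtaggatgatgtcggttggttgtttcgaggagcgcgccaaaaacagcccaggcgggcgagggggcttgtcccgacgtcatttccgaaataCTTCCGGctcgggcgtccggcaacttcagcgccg
Ndufc2: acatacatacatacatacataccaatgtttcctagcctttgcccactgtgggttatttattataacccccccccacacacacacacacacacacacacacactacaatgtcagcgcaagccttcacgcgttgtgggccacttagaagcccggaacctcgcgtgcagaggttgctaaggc
Ndufa4: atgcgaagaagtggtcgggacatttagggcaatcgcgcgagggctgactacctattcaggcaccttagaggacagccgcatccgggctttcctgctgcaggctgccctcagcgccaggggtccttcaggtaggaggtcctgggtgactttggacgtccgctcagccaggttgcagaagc

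Complex I takes electrons from NADH. Its peripheral arm in the matrix carries the flavin and the iron-sulfur clusters, and the 7 nuclear core subunits of that arm were all higher in LCC than in both other libraries. Ndufv1, which binds the flavin and oxidises NADH, stood at 46.0, 24.6 and 20.4 FPKM. Its iron-sulfur partner Ndufv2 stood at 20.2 FPKM in LCC against 11.0 in E-Int29-Hi and 9.13 FPKM in MG. Ndufs1, the largest core subunit, had 26.1, 9.20 and 13.5 FPKM, which put MG above E-Int29-Hi. Its log2 difference of 1.41 against E-Int29-Hi was the largest of the 7. Ndufs7 and Ndufs8, which hold the clusters on the way to the quinone, stood at 31.4, 15.1 and 14.5 FPKM and at 24.9, 10.9 and 10.8 FPKM. Ndufs3 had the lowest LCC level of the 7, with 10.9, 5.82 and 5.98 FPKM, and shared 50.3% of its 30-base words with other annotated genes. Of the 7, 3 were 2-fold higher in LCC than in E-Int29-Hi and 4 than in MG, beside 21.2% and 10.9% of all genes.

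The 9 accessory subunits of the peripheral arm, which stabilise it, also all stood highest in LCC. Ndufa6, a member of the LYR family, had 69.0 FPKM in LCC against 48.1 in E-Int29-Hi and 29.6 FPKM in MG, graded from LCC to MG. Ndufa2, with a thioredoxin-like fold, had 73.3, 36.7 and 25.9 FPKM, the largest difference against MG in the arm at 1.46. Ndufa9, which sits near the quinone pocket, had 28.5 FPKM in LCC beside 11.2 in E-Int29-Hi and 12.2 FPKM in MG. Its difference against E-Int29-Hi, 1.28, was the largest of these 9. Ndufs4, whose loss causes a Leigh-like disease, stood at 24.1, 11.5 and 11.2 FPKM, about equal in the other libraries. Ndufs6, which binds zinc, followed with 17.3 FPKM in LCC against 8.09 in E-Int29-Hi and 6.81 FPKM in MG. Ndufv3 departed from the rest: at 17.1, 7.46 and 12.5 FPKM, its MG value lay between the other libraries and its difference against MG was 0.43. The other 3, Ndufa5, Ndufa7 and Ndufa12, were between 0.39 and 0.59 higher against E-Int29-Hi and between 0.75 and 0.97 against MG.

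The membrane arm carries the proton pumps, which are mitochondrial products, and 19 nuclear accessory subunits around them. Within complex I this group held the widest range. Ndufc2 stood at 58.7 FPKM in LCC beside 15.4 in E-Int29-Hi and 14.2 FPKM in MG. With log2 differences of 1.87 and 1.97 against E-Int29-Hi and MG it had the largest difference of all nuclear members in both. Ndufb6 stood at 58.5, 17.3 and 16.8 FPKM, and Ndufb3 at 19.6 FPKM in LCC against 5.67 in E-Int29-Hi and 5.96 FPKM in MG. In all 3 genes E-Int29-Hi and MG lay within 0.11 log2 units of each other. Ndufb7, an intermembrane space subunit with disulfide bonds, had 31.3, 10.1 and 14.0 FPKM, with E-Int29-Hi lowest. The same order held for Ndufa10, which resembles a nucleoside kinase, at 22.7 FPKM in LCC beside 9.00 in E-Int29-Hi and 11.2 FPKM in MG, and for Ndufs5 at 4.24, 1.21 and 1.80 FPKM. Other members were graded from LCC through E-Int29-Hi to MG. Ndufb9, the most abundant complex I member, had 83.7 FPKM in LCC against 39.3 in E-Int29-Hi and 27.6 FPKM in MG. Ndufb2 had 43.3, 28.1 and 14.6 FPKM, and its difference of 0.89 between E-Int29-Hi and MG was the largest of the nuclear members. Ndufb5 had 67.7 FPKM in LCC beside 38.7 in E-Int29-Hi and 29.3 FPKM in MG, and Ndufa1, an X-linked subunit needed to build the arm, 62.4, 50.3 and 33.7 FPKM. Ndufa3 stood at 73.5 FPKM in LCC against 31.9 in E-Int29-Hi and 28.9 FPKM in MG, and Ndufa11 at 6.41, 3.61 and 2.16 FPKM, both over 2-fold higher in LCC than in MG. The members Ndufb10 and Ndufc1 did not share the LCC maximum. Ndufb10 had 23.2 FPKM in LCC beside 23.3 in E-Int29-Hi and 18.7 FPKM in MG, and Ndufc1 2.80, 3.01 and 2.01 FPKM, so that E-Int29-Hi was marginally highest. In the arm 8 of 19 members were 2-fold higher in LCC than in E-Int29-Hi, beside 21.2% of all genes, and 9 of 19 than in MG, beside 10.9%. The counts by arm were not taken after subtraction of the length bin median.

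Complex II, succinate dehydrogenase, is also an enzyme of the citric acid cycle and has no mitochondrially encoded subunit. Its 4 subunits all stood highest in LCC and divided on the lower libraries. Sdha, the flavin subunit that oxidises succinate, had 39.7 FPKM in LCC against 18.5 in E-Int29-Hi and 25.8 FPKM in MG. Sdhd, a membrane anchor, had 43.8, 17.2 and 19.8 FPKM. In both, E-Int29-Hi was lowest. Sdhb, the iron-sulfur subunit, had 49.8 FPKM in LCC beside 31.8 in E-Int29-Hi and 21.3 FPKM in MG, and the other anchor Sdhc 35.2, 29.9 and 16.8 FPKM, and in these MG was lowest. Sdhc differed little between LCC and E-Int29-Hi (0.23) but by 1.02 between LCC and MG. Subunits of 1 enzyme thus differed in which control library was the lower.

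Complex III passes electrons from ubiquinol to cytochrome c. Of its 8 nuclear members, 7 stood highest in LCC. The cytochrome c1 subunit (Cyc1) does not match the name rule, so it is not among the 8 and is described with the electron carriers below. The core proteins Uqcrc1 and Uqcrc2 had 67.8, 42.6 and 32.4 FPKM and 76.3, 33.6 and 32.0 FPKM. The Rieske iron-sulfur protein Uqcrfs1 had 44.4 FPKM in LCC against 22.8 in E-Int29-Hi and 26.1 FPKM in MG, the smallest LCC excess of the 3 core members over MG. Among the small subunits Uqcrq stood at 80.9, 39.4 and 28.0 FPKM, Uqcr10 at 60.9 FPKM in LCC beside 25.9 in E-Int29-Hi and 22.5 FPKM in MG, and the quinone-site subunit Uqcrb at 47.3, 23.2 and 17.4 FPKM. All 3 were near or over 2-fold higher in LCC than in each other library. The exception was Uqcrh, the hinge protein that docks cytochrome c1, with 73.0 FPKM in LCC against 86.5 in E-Int29-Hi and 59.9 FPKM in MG. It was highest in E-Int29-Hi and differed by only 0.28 between LCC and MG. Uqcr11 had 26.8, 22.6 and 19.0 FPKM, and with Uqcrh it was the least different member of the complex. Against E-Int29-Hi 3 of 8 and against MG 5 of 8 were 2-fold higher in LCC, beside 21.2% and 10.9% of all genes.

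Complex IV, cytochrome c oxidase, reduces oxygen. Its 10 ubiquitous nuclear subunits with a value all stood highest in LCC, with a median difference of 1.11 against E-Int29-Hi and 1.36 against MG. Ndufa4, once counted with complex I and now placed in complex IV, had 262 FPKM in LCC beside 87.1 in E-Int29-Hi and 71.3 FPKM in MG, the highest nuclear level of the complex in LCC. Its differences were 1.58 and 1.86. Cox7b had 49.2, 15.6 and 13.4 FPKM, with log2 differences of 1.60 and 1.80. Cox5a, a matrix-facing subunit, had 98.6 FPKM in LCC against 33.2 in E-Int29-Hi and 38.5 FPKM in MG, and Cox6b1, which joins the dimer on the outer face, 159.6, 62.3 and 60.1 FPKM. In these 4 genes E-Int29-Hi and MG lay within 0.28 log2 units of each other. Cox7a2 had 80.1 FPKM in LCC beside 31.2 in E-Int29-Hi and 24.9 FPKM in MG. Cox8a and Cox6c were graded instead: Cox8a had 227, 147 and 82.4 FPKM, and Cox6c 72.7 FPKM in LCC against 51.4 in E-Int29-Hi and 29.4 FPKM in MG, so that E-Int29-Hi stood well above MG. Cox6a1 had 157, 85.0 and 77.7 FPKM, Cox5b 37.1 FPKM in LCC beside 23.2 in E-Int29-Hi and 18.7 FPKM in MG, and Cox7c 14.4, 7.80 and 8.64 FPKM, the lowest of the ubiquitous subunits. Cox7a2l, which links complex III to complex IV rather than being an enzyme subunit, had 62.5 FPKM in LCC against 47.7 in E-Int29-Hi and 37.9 FPKM in MG.

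Several complex IV subunits have forms restricted to muscle, testis or lung, and in these libraries they were minor. Cox6a2, the muscle form of Cox6a1, and Cox8b, that of Cox8a, were listed at 0 in LCC and E-Int29-Hi and at 0.150 and 0.369 FPKM in MG. Cox7b2 and Cox8c were listed at 0 in all 3 libraries. Cox7a1, the muscle form of Cox7a2, had 1.90, 0.860 and 0.640 FPKM, a share of 2.31% to 2.68% of the pair, so this share was about equal in the 3 libraries. Cox6b2, the testis form of Cox6b1, had 0.714 FPKM in LCC beside 3.22 in E-Int29-Hi and 1.47 FPKM in MG. It made 0.445%, 4.91% and 2.38% of the pair, opposite to the common form. Cox4i2, a form known from lung, had 2.73, 0.853 and 1.14 FPKM, and its common partner Cox4i1 had no value. Ndufa4l2, a hypoxia-induced relative of Ndufa4, had 0.751 FPKM in LCC against 1.06 in E-Int29-Hi and 2.28 FPKM in MG, the only member of the 80 highest in MG. These low values are the least precise of the set.

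Complex V, the ATP synthase, turns a ring of c subunits with the proton current and makes ATP in its F1 head. Its 18 members all stood highest in LCC. The head subunits were abundant, and Atp5a1 and Atp5d were among the least different members. Atp5b, the catalytic beta subunit, had 429, 296 and 224 FPKM, the highest level of any nuclear member in each library. Atp5a1, the alpha subunit, had 192 FPKM in LCC beside 166 in E-Int29-Hi and 124 FPKM in MG, and the delta subunit Atp5d 104, 102 and 62.8 FPKM, where LCC and E-Int29-Hi were nearly equal. Atp5c1, the gamma shaft, and Atp5e, the epsilon subunit, had 66.0, 37.1 and 31.8 FPKM and 156, 89.5 and 70.2 FPKM. None of the 5 head subunits was 2-fold higher in LCC than in E-Int29-Hi and 2 were than in MG, beside 21.2% and 10.9% of all genes. The stalk, which holds the head still, differed more. Atp5j had 102 FPKM in LCC against 42.5 in E-Int29-Hi and 38.5 FPKM in MG, Atp5f1 61.1, 26.5 and 26.7 FPKM and the oligomycin sensitivity protein Atp5o 39.2 FPKM in LCC beside 18.4 in E-Int29-Hi and 16.4 FPKM in MG, each over 2-fold higher in LCC than in both. Atp5h had 21.2, 16.4 and 10.7 FPKM, and the difference against E-Int29-Hi was 0.35. The median difference against E-Int29-Hi was 1.11 in the 4 stalk members and 0.53 in the 5 head subunits.

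The 3 c-ring genes encode the same mature protein behind different import signals. Atp5g3 was dominant, with 199 FPKM in LCC against 142 in E-Int29-Hi and 119 FPKM in MG, followed by Atp5g2 with 73.6, 35.8 and 28.6 FPKM and Atp5g1 with 43.0 FPKM in LCC beside 20.5 in E-Int29-Hi and 23.5 FPKM in MG. Atp5g3 made 63.0%, 71.6% and 69.5% of their summed FPKM, and Atp5g2 made 23.3%, 18.1% and 16.7%. The small membrane subunits were lower in level: Atp5j2 had 41.0, 19.7 and 18.0 FPKM, Atp5l 27.6 FPKM in LCC against 17.8 in E-Int29-Hi and 12.1 FPKM in MG, and Atp5k 16.8, 6.93 and 4.60 FPKM. Atp5k had the largest difference of a complex V subunit against MG, 1.67. The pseudogene Atp5l-ps1 had 42.2 FPKM in LCC beside 16.4 in E-Int29-Hi and 12.7 FPKM in MG, but 69.6% of its 30-base words occur in other annotated genes, so reads of Atp5l and of its copy cannot be told apart. Atp5s and Atp5sl, which share the name but are not subunits, had 1.10, 1.06 and 1.08 FPKM and 5.54, 3.84 and 5.11 FPKM and stood at nearly the same level in LCC and MG.

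The 13 mitochondrially encoded mRNAs were far more abundant than most nuclear members, and between LCC and each other library they differed less. Their median was 1528, 1069 and 1073 FPKM. On the deposited scale none was 2-fold apart in any comparison. There, 21.2% and 14.1% of all genes were higher and lower in LCC than in E-Int29-Hi. The shares were 10.9% and 12.8% for LCC against MG, and 8.99% and 15.5% for E-Int29-Hi against MG. In the last comparison mt-Nd6 passed 2-fold as TPM (-1.08) and with the same sum over other genes (-1.09). mt-Nd5 did so with the same sum (-1.01). Against E-Int29-Hi 12 of 13 were higher in LCC with a median of 0.47, and against MG 9 of 13 with a median of 0.24, which became -0.14 as TPM or with the same sum over other genes. Relative to the median gene it was 0.21 and 0.23, below the 0.56 and 1.03 of the nuclear members. The oxidase subunits were the most abundant: mt-Co3 had 3844, 2565 and 2144 FPKM, mt-Co2 3661 FPKM in LCC against 2484 in E-Int29-Hi and 2420.5 FPKM in MG, and the catalytic mt-Co1 3308, 2591 and 2789 FPKM. mt-Co3 was the highest of the 13 in LCC, and mt-Co1 was highest in the other libraries. mt-Nd1, the complex I subunit at the quinone channel, had 2161 FPKM in LCC beside 1241 in E-Int29-Hi and 1182 FPKM in MG, with the largest LCC excess and log2 differences of 0.80 and 0.87. The ATP synthase mRNAs had 2198, 1628 and 1905 FPKM for mt-Atp8 and 1732, 1069 and 1073 FPKM for mt-Atp6, the proton channel subunit. mt-Cytb, the only mitochondrial product of complex III, had 1528, 1106 and 1296 FPKM.

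The complex I genes of the mitochondrial genome did not all differ in the same direction between LCC and MG. mt-Nd2 and mt-Nd3 had 869, 628 and 762 FPKM and 705, 496 and 469.7 FPKM, highest in LCC on the deposited scale. The 4 genes that follow in the genome were all highest in MG on that scale: mt-Nd4l had 454 FPKM in LCC against 523 in E-Int29-Hi and 524 FPKM in MG, mt-Nd4 942, 845 and 1040.2 FPKM, mt-Nd5 434 FPKM in LCC beside 324 in E-Int29-Hi and 571 FPKM in MG, and mt-Nd6 505, 339 and 634 FPKM. Their differences between LCC and MG on the deposited scale were -0.21, -0.14, -0.40 and -0.33, beside 0.87 for mt-Nd1. The last gene in the genome, mt-Cytb, had 0.24. Against E-Int29-Hi mt-Nd4, mt-Nd5 and mt-Nd6 were higher in LCC (0.16, 0.42 and 0.58) and mt-Nd4l was lower (-0.20). Which genes were higher in LCC depended on the scaling: as TPM or with the same sum over other genes, LCC was above MG in 5 of 13 and below it in 8, and mt-Nd2 went from 0.19 to -0.19 with the same sum, while mt-Nd1 (0.49) and mt-Nd3 (0.21) remained above 0. On the deposited scale mt-Nd5 and mt-Nd6 were also the most different between E-Int29-Hi and MG, at -0.82 and -0.90. Each gene's share of the mitochondrial sum moved likewise: mt-Nd5 made 1.94%, 2.04% and 3.40%, and mt-Co3 17.2%, 16.2% and 12.8%. The labels name poly-T capture, and mt-Nd6 is known to have little or no poly(A) tail. It is the single gene of the 13 on the minus strand, and no source used here says whether reads were counted by strand, so its reads and those of the opposite strand cannot be told apart.

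**Figure D4:**
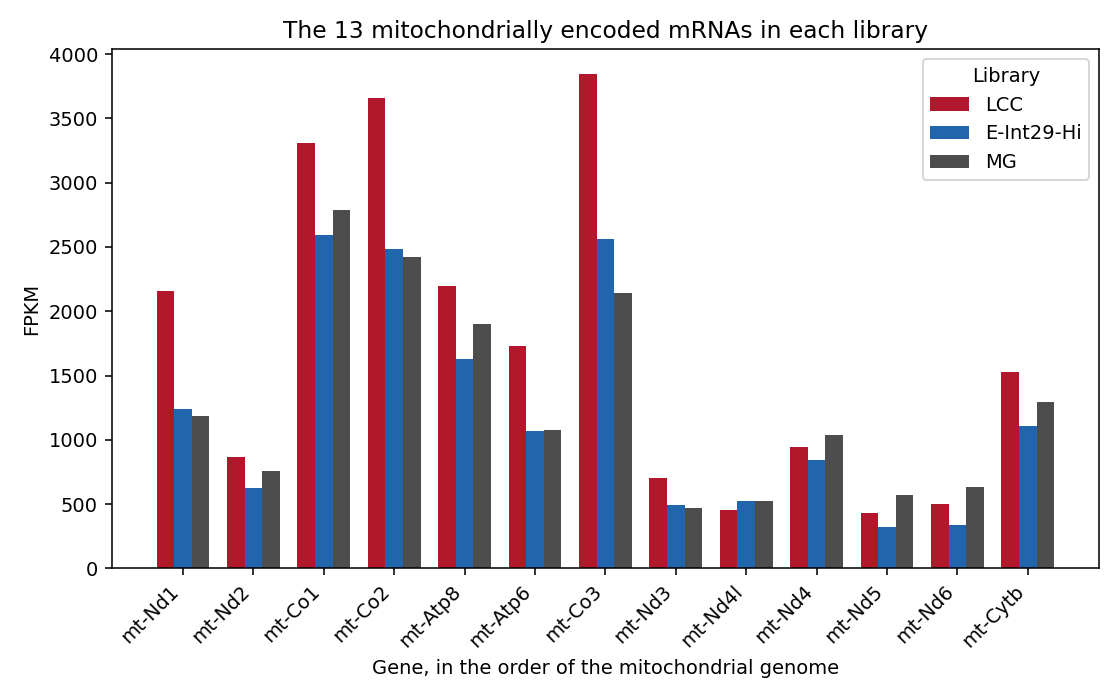
FPKM of the 13 mitochondrially encoded mRNAs (linear axis from 0) in LCC, E-Int29-Hi and MG, in the order of the mitochondrial genome. mt-Co3, mt-Co2 and mt-Co1 are highest in every library, and mt-Nd4l, mt-Nd4, mt-Nd5 and mt-Nd6 are the genes whose MG bar is above the LCC bar on the deposited scale.

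Neighbouring mitochondrial genes share bases, which limits how their values can be separated. The last bases of mt-Atp8 are also the first of mt-Atp6: 43 bases, at chrM:7927-7969 on the plus strand of GRCm38. mt-Nd4l and mt-Nd4 share 7 bases at chrM:10167-10173. These overlaps are shown with 20 bases on each side and the shared bases in capitals, because the paired values above come partly from the same RNA. mt-Nd5 and mt-Nd6 also overlap, by 14 bases at chrM:13552-13565. They lie on opposite strands, and that overlap is not shown.
mt-Atp8 and mt-Atp6: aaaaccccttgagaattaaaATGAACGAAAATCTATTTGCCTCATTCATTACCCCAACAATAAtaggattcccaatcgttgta
mt-Nd4l and mt-Nd4: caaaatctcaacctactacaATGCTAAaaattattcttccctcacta

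Nuclear copies of mitochondrial DNA add a further limit. Of the 30-base words of mt-Co2, mt-Co3, mt-Atp6, mt-Nd3 and mt-Nd4l, between 98.1% and 100% also occur in another annotated gene. The files list such copies with high values. Gm10925, which holds 99.5% of the words of mt-Atp6, had 1482, 946 and 959 FPKM, and Gm10222, a copy of mt-Nd4l, had 454, 524 and 526 FPKM, nearly the values of mt-Nd4l itself. Among nuclear members 29 of 84 shared 10% or more of their words. Gm11273 (a copy of Cox5b) had 80.2, 50.7 and 44.0 FPKM, Gm5436 (of Atp5o) 48.8, 23.1 and 22.2, and Gm10250 (of Atp5h) 71.9, 61.4 and 37.4. These 3 copies stood above the member they match in every library, and the members' own values are uncertain to that extent. Without the members that share 10% or more, the median nuclear difference was 0.88 against E-Int29-Hi and 1.06 against MG.

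The balance between the genomes differed between libraries. The summed FPKM of the 13 mitochondrial mRNAs was 4.78 times that of the nuclear members in LCC, while E-Int29-Hi had 5.91 and MG 7.82 times, and such a ratio does not depend on how a library is scaled. By medians the ratio was 37.9, 53.2 and 60.5, in the same order. Nuclear members made 1.25%, 0.823% and 0.746% of all FPKM, and mitochondrial mRNAs 5.95%, 4.86% and 5.83%. The order LCC below E-Int29-Hi below MG also held for the ratio of medians in complexes III, IV and V, but in complex I the ratio was 27.0, 45.7 and 45.3. In LCC the nuclear share was the larger of the 3 libraries, while the mitochondrial share was about that of MG.

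Between E-Int29-Hi and MG 59 of 79 nuclear members were higher in E-Int29-Hi by any amount, beside 38.1% of all genes. With the same sum over genes other than mitochondrial ones 47 of 79 were higher. The share of all genes is not given for that scaling, which moves all genes as well. The members' median was then 0.06, beside -0.40 for all genes. On the deposited scale it was 0.24, beside -0.23. The largest excesses were in Ndufb2 (0.89), Cox8a (0.83), Sdhc (0.80) and Cox6c (0.79). The largest deficits among members at 10 FPKM or more were in Ndufv3 (-0.67), Ndufs1 (-0.50), Sdha (-0.46) and Ndufb7 (-0.43). On the deposited scale all complexes had a positive median, from 0.18 in complex II to 0.31 in complex III.

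Genes that serve the complexes did not share a single pattern. Among 16 electron carrier genes, which include cytochrome c, cytochrome c1 and the makers of coenzyme Q, 5 were 2-fold higher in LCC than in E-Int29-Hi, beside 21.2% of all genes, and 1 than in MG, a smaller share than the 10.9% of all genes. None was lower. Cyc1, the cytochrome c1 of complex III, had 62.2 FPKM in LCC against 39.4 in E-Int29-Hi and 33.9 FPKM in MG. Coq4, a coenzyme Q synthesis factor, had 7.32, 1.29 and 2.74 FPKM, and was the gene past 2-fold against both. Coq10b, a coenzyme Q binding protein and the most abundant gene of the list on average, had 45.1 FPKM in LCC beside 65.3 in E-Int29-Hi and 46.5 FPKM in MG, highest in E-Int29-Hi. Etfb and Etfdh, which bring electrons from fatty acid oxidation, had 18.1, 18.9 and 17.3 FPKM and 17.2, 21.8 and 13.4 FPKM, without an LCC maximum. Etfa, on the same list, was highest in LCC, at 23.5 FPKM beside 10.7 in E-Int29-Hi. Its log2 differences were 1.07 against E-Int29-Hi and 0.81 against MG. Of 39 assembly factors, 13 were 2-fold higher in LCC than in E-Int29-Hi and 7 than in MG, beside the same 21.2% and 10.9% of all genes, and none was lower. Cox17, the copper chaperone of complex IV, had 57.2, 12.4 and 20.1 FPKM. The complex III factors Uqcc1 (listed as Uqcc) and Uqcc2 (listed as 2900010M23Rik) had 26.3, 4.11 and 8.95 FPKM and 34.3, 14.8 and 9.10 FPKM. Uqcc1 and Cox17 were over 4-fold higher in LCC than in E-Int29-Hi, a size no subunit reached. Ndufaf4, a complex I factor, went the other way, with 10.8 FPKM in LCC against 16.2 in E-Int29-Hi and 13.9 FPKM in MG.

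The 17 genes of pyruvate dehydrogenase and the citric acid cycle had medians of 0.53 and 0.62 in the LCC comparisons, smaller than those of the subunits. The medians of all genes were 0.26 and 0.01. By any amount 16 of the 17 were higher in LCC in each comparison, beside 60.7% and 50.3% of all genes. Only 1 of the 17 was 2-fold higher against E-Int29-Hi, a share well under the 21.2% of all genes, and 2 were against MG, near the 10.9%. Mdh2, malate dehydrogenase, had 134, 93.7 and 63.2 FPKM, and Cs, citrate synthase, 66.7 FPKM in LCC beside 35.4 in E-Int29-Hi and 34.7 FPKM in MG. Idh3b and Dlst had 56.8, 33.9 and 29.9 FPKM and 53.0, 43.2 and 44.6 FPKM, all highest in LCC. Of 20 genes for mitochondrial transcription, DNA upkeep and biogenesis, 3 were higher and 2 lower in LCC than in E-Int29-Hi, and 2 higher and 3 lower than in MG, with medians of 0.52 and -0.04. These counts lie near or under the shares of all genes, 21.2% and 14.1% against E-Int29-Hi and 10.9% and 12.8% against MG. Slirp (listed as 1810035L17Rik), which stabilises mitochondrial mRNAs, had 36.9, 11.9 and 11.7 FPKM. Esrra, the receptor ERR alpha, was higher in LCC too, with 10.4 FPKM in LCC against 2.62 in E-Int29-Hi and 4.64 FPKM in MG. Coactivators of the family that works with it were lower in LCC than in E-Int29-Hi: Pprc1 had 23.9, 55.6 and 33.8 FPKM, and Ppargc1b 0.352 FPKM in LCC beside 5.63 in E-Int29-Hi and 0.844 FPKM in MG, over 4-fold lower than in E-Int29-Hi. Of the other factors whose words were searched above, Yy1 had 39.4, 35.4 and 41.3 FPKM and Nrf1 15.2, 11.9 and 10.6 FPKM. The genes of the GABP subunits differed from each other. Gabpb1 had 30.3, 17.3 and 19.8 FPKM, highest in LCC, and Gabpa 16.1, 9.18 and 17.9 FPKM, highest in MG. Among 9 carriers, channels and regulators, 4 were 2-fold higher and none lower in LCC than in MG, beside 10.9% and 12.8% of all genes, and 2 were higher and 1 lower than in E-Int29-Hi, beside 21.2% and 14.1%. Slc25a5, an ATP and ADP exchanger, had 275, 146 and 107 FPKM, while the phosphate carrier Slc25a3 had 238, 191 and 193 FPKM. Atpif1, the inhibitor of the ATP synthase, had 86.0 FPKM in LCC against 71.3 in E-Int29-Hi and 36.1 FPKM in MG. The uncoupling protein Ucp2 stood apart with 111, 406 and 91.1 FPKM, so that E-Int29-Hi exceeded LCC by 1.86 log2 units and MG by 2.14.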

How the data were processed

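Polyadenylated RNA was captured with poly-T beads and sequenced, per the labels' protocols. Each deposited table holds the FPKM of every gene model in 1 library beside a status flag, per the file headers. The submitters' processing notes list TopHat 1.4.1, Cufflinks 1.3.0 and the build mm9; their role, the annotation release, read totals and strand use are not given in the sources used here. Members and gene lists were chosen with earlier results of these data known.

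Of 22378 gene models, 22188 had the status OK throughout and were kept, and for each name the model with the highest summed FPKM was kept. Differences are log2((FPKM + 1)/(FPKM + 1)) over genes that reached 1 FPKM in the pair. Single libraries allow no test. Named genes were all mitochondrial mRNAs, the isoform families, every member 2-fold or more apart in any comparison, the 3 most abundant and the 2 highest and 2 lowest differences per complex, and the 4 most abundant genes of each pathway list with any that were 4-fold apart. Coq4, Etfa, Esrra, Nrf1, Gabpa, Ndufs3, Ndufa5, Ndufa7, Ndufa12, Ndufc1, Cox5b, Atp5s and Atp5sl fall outside this rule and were chosen after their values were seen. A member that enters the counts and medians is not reported here by name.

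Transcript lengths (96.6% of genes), 30-base words and mitochondrial coordinates came from GENCODE on GRCm38, another build than mm9, so no coordinates of the files were used. Calculations used Python 3.11.15, numpy 2.4.6 and pandas 2.3.3. Only the log2 differences and 2-fold calls were tested on simulated data, for genes at 10 FPKM or more in MG and at an assumed depth. Alternatives covered pseudocounts, filters, scalings, thresholds, gene models, length and shared sequence.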

Additional observations from a re-analysis of the deposited data

How the results depend on the processing

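The nuclear medians kept their sign in all 3 comparisons under every alternative run, and the counts did not keep their size. For LCC against E-Int29-Hi the nuclear median of 0.82 became 0.55 with median ratio scaling, 0.69 as TPM, 0.64 with the same sum over genes other than mitochondrial ones and 0.33 after subtraction of the length bin median. For LCC against MG the 1.04 became 1.14 and 0.91 with pseudocounts of 0.1 and 5 FPKM, 0.75 as TPM, 0.69 with the same sum and 0.71 after length subtraction. For E-Int29-Hi against MG the 0.24 became 0.55 with median ratio scaling, 0.076 as TPM, 0.061 with the same sum and 0.36 after length subtraction. The mitochondrial median changed sign for LCC against MG as TPM (-0.14) and with the same sum (-0.14), and for E-Int29-Hi against MG with median ratio scaling (0.23); these are shifts of the whole library by construction. It was 0.18, 0.26 and 0.28 for LCC against E-Int29-Hi with median ratio scaling, TPM and the same sum, and -0.28 and -0.30 for E-Int29-Hi against MG as TPM and with the same sum. Members 2-fold higher in LCC than in E-Int29-Hi were 34 as reported, beside 21.2% of all genes. They numbered 17 with the same sum, beside 16.6%, and 7 after length subtraction, beside 13.4%. They numbered 19 with a pseudocount of 5 FPKM, 14 with median ratio scaling, 19 as TPM, 0 at 4-fold and 57 at 1.5-fold. For these settings the share of all genes is not given, so the counts cannot be set against it. Those higher than in MG were 44 as reported, beside 10.9% of all genes. They numbered 17 with the same sum, beside 5.27%, and 12 after length subtraction, beside 8.06%. They numbered 29 with a pseudocount of 5 FPKM, 18 as TPM, 0 at 4-fold and 71 at 1.5-fold, again without a share of all genes. Without members that share 10% or more of their 30-base words they numbered 29, where fewer genes were tested. For E-Int29-Hi against MG, 1 was higher after length subtraction, beside 12.3% of all genes. With median ratio scaling 7 were higher, at 1.5-fold 7 and with a pseudocount of 0.1 FPKM 1, without a share of all genes. Lower members numbered 1 as reported against E-Int29-Hi and 0 with a pseudocount of 5 FPKM, a filter at 5 FPKM or 4-fold. Against MG 0 became 3 as TPM and 1 with a pseudocount of 0.1 FPKM, the same sum, 1.5-fold or length subtraction. Between E-Int29-Hi and MG 0 became 2 as TPM or at 1.5-fold and 1 with a pseudocount of 0.1 FPKM. The shares of all genes that were lower under these settings are not given. The mitochondrial to nuclear ratio of 4.78, 5.91 and 7.82 became 37.9, 53.2 and 60.5 by medians, in the same order. Apart from the constructions named, the cause was not tested. The length and shared-sequence alternatives were chosen after seeing the data. No row of mitochondrial rRNA or tRNA matched the name rule, so that alternative gave no other value. No paired analysis was possible because each group has 1 library, which also leaves no replicate to leave out. The depth of each library is unknown, so values near 1 FPKM, such as those of Cox6b2, Cox4i2 and Ndufa4l2, have no stated precision.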
